A study of Mus musculus with 14 samples.

Results

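The neurotrophin genes described here are Ntf3 and Bdnf, which encode secreted ligands, and Ntrk2, Ntrk3, Ngfr and Sort1, which encode receptors. These 6 members of the 54524 genes in the count table were matched by Ensembl identifier to their symbols in GENCODE vM21. The set was chosen by a measured value, because Ntf3 was among the genes with the largest falls 7 days after liver injury. The change of Ntf3 against healthy cells is therefore given as a description, with no test. The other 5 members were not chosen by their own change, and their tests are given.

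RNA was sequenced from liver sinusoidal endothelial cells (LSECs), the fenestrated cells that line the liver capillaries, of male Balb/c mice aged 10-12 weeks. Healthy mice were non-treated (n = 4) and received neither CCl4 nor its mineral oil carrier. The injured mice received 1 intraperitoneal dose of carbon tetrachloride (CCl4), a toxin that kills hepatocytes around the central vein. The dose was 0.5 µL per g body weight in mineral oil. Livers of the injured mice were collected after 1 day (n = 2), 3 days (n = 4) or 7 days (n = 4). Per the study, 2 other day 1 samples were left out because their RNA quality was too low (low RIN values). No genotype was altered in any group, all cells were freshly sorted as CD32+ and F4/80- viable cells without the UV autofluorescence of stellate cells, and the labels do not say whether a sample is 1 mouse or a pool. Since the control mice had no injection, the CCl4 and its carrier cannot be told apart. All 12 LSEC markers examined, among them Stab2 and Lyve1, were detected in every group.

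Neurotrophins are secreted growth factors that were first studied for their part in the survival and outgrowth of neurons. The product of Ntf3, neurotrophin-3, binds best to the tyrosine kinase TrkC (Ntrk3), and brain-derived neurotrophic factor (Bdnf) binds to TrkB (Ntrk2). The p75 neurotrophin receptor (Ngfr) binds every mature neurotrophin with low affinity, and together with sortilin (Sort1) it binds the uncleaved proforms. In the liver, p75 is known from hepatic stellate cells, the pericytes that lie between LSECs and hepatocytes.

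Total counts ranged from 46401496 to 103912264 per sample, and levels are given as CPM (counts per 1000000 counts) on the scaled library size. At these depths the value that 3 counts give, used here as the floor of detection, lay between 0.0299 and 0.0661 CPM. The day 3 group was the least uniform, with 22986 genes counted in replicate 4 and 34768 in replicate 2. A gene was called changed at a Benjamini-Hochberg adjusted p under 0.05 in edgeR over 26626 tested genes, and all 6 members passed the filter on low counts.

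Ntf3 (ENSMUSG00000049107) is a protein-coding gene at chr6:126101412-126166910 on the minus strand of GRCm38, and no other annotated gene overlaps it. Since the finding turns on Ntf3, its 2 RefSeq promoter windows are printed, from 250 bases before to 50 bases after each annotated start, at chr6:126166695-126166994 for the window further upstream and at chr6:126164911-126165210 for the other, both on the minus strand of GRCm38.p6. Capitals mark matches, on either strand, to an E box (CANNTG), a GC box (GGGCGG), the core of a cAMP response element (TGACG) or a TATA box (TATAAA).
Ntf3 upstream start: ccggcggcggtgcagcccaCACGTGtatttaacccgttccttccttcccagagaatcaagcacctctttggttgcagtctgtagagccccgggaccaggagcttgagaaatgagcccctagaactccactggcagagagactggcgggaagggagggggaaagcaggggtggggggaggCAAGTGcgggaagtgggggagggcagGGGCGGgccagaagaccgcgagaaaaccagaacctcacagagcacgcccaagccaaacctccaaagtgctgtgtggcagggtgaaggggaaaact
Ntf3 downstream start: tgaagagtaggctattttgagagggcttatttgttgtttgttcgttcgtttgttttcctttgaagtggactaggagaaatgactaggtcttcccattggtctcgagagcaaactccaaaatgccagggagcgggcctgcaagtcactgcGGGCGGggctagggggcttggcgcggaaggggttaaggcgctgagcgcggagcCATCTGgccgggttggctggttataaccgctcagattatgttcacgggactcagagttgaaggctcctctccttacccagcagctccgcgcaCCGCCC
The upstream window held 2 E boxes and 1 GC box, and the downstream window 1 E box and 2 GC boxes. Among 32851 mouse promoter windows of the same length, 72.3% held an E box, 35.7% a GC box, 20.8% the TGACG core and 13.6% a TATA box. The counts do not show from which start the Ntf3 RNA came.

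Ntf3 was the most abundant of these genes in healthy LSECs and was lower in every injured sample. It stood at 51.1, 39.8, 47.7 and 61.7 CPM in the 4 healthy samples. One day after CCl4 it was 9.01 and 8.57 CPM. After 3 days it was 15.01, 12.8, 5.13 and 4.03 CPM, and after 7 days 8.72, 10.7, 6.22 and 13.6 CPM. The highest injured sample, day 3 replicate 1, thus lay below the lowest healthy one, and the injured groups overlapped each other. The healthy mean was 50.1 ± 9.08 CPM (SD, n = 4). The injured means were 8.79 ± 0.306 CPM (n = 2) after 1 day, 9.25 ± 5.48 CPM (n = 4) after 3 days and 9.80 ± 3.12 CPM (n = 4) after 7 days.

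**Figure D1:**
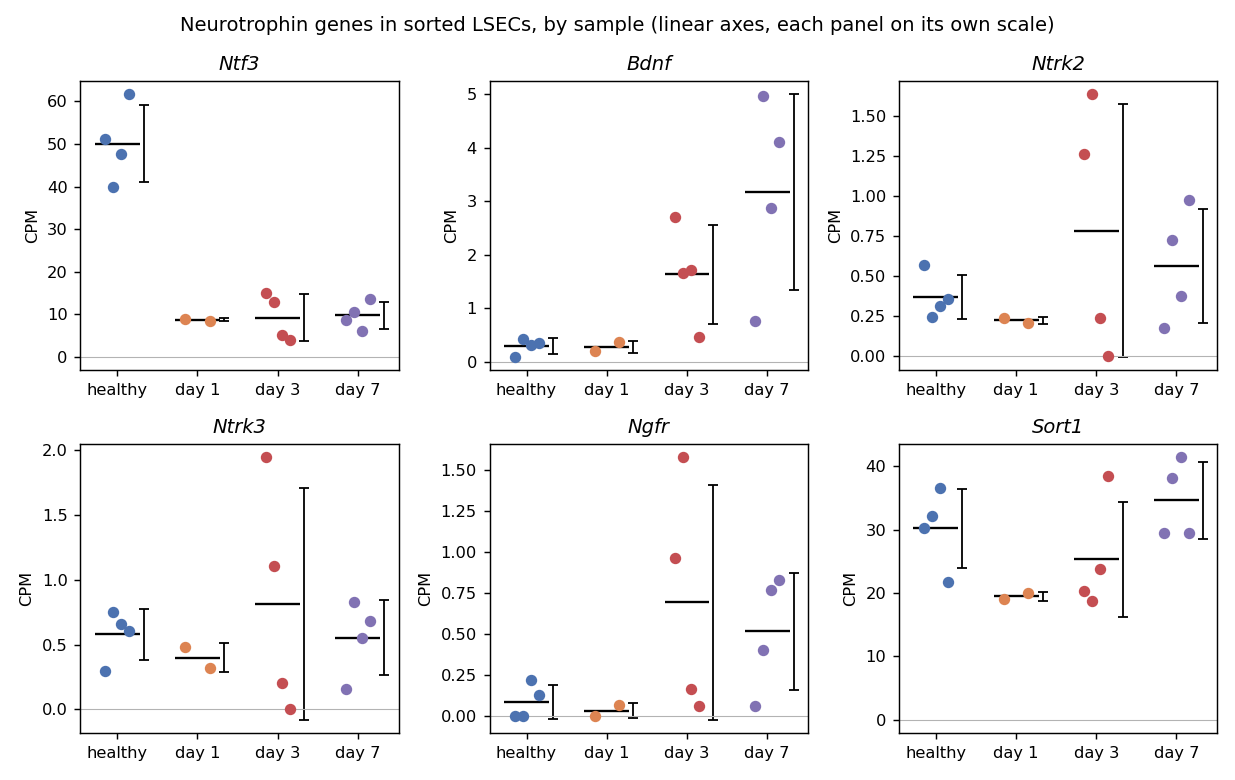
CPM of the 6 members in each sample on linear axes, 1 panel per gene with its own scale, where points are samples, horizontal lines group means and bars the SD. Ntf3 is at most 15.01 CPM in every injured sample against 39.8 CPM or more in the healthy ones, while Bdnf is highest at day 7.

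The fitted log2 fold change of Ntf3 against healthy was -2.51 (SE 0.52) at day 1, -2.44 (SE 0.40) at day 3 and -2.35 (SE 0.40) at day 7, or 5.70-, 5.42- and 5.11-fold lower. These 3 values share the same healthy samples and were not tested, since the set was chosen by the last of them. Ntf3 had rank 5 by size of fall among 262 of the 26626 tested genes. These were the genes called lower at day 7 whose samples did not overlap with the healthy ones. The rank restates the choice of the set and lends the fall no further support. The genes just above it in that order were Klhdc8a (log2 -2.46) and Cyp1a1 (-2.36), and those just below were Pcp4l1 (-1.99) and Mlf1 (-1.87). The means of day 3 and day 1 rest on no sample of the choice. Their comparison took its spread from all 14 samples, however, so its SE and p are not independent of the choice. From day 1 to day 3 the log2 difference of Ntf3 was 0.07 (SE 0.46, edgeR adjusted p = 0.968). From day 3 to day 7 it was 0.09 (SE 0.38). The mean at day 7 was close to that at day 1. As Ntf3 was chosen for its low level at day 7, this is a description and shows nothing about recovery.

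In bulk RNA, fewer cells of a type and less RNA per cell cannot be told apart. The summed level of the 12 LSEC markers, which bears on the first, spanned 16989 to 21112 CPM in healthy samples. It spanned 13526 to 16593 CPM after 1 day, 10885 to 14876 CPM after 3 days and 10182 to 14576 CPM after 7 days. The summed LSEC markers were therefore lower in all injured samples, with medians of 18996 CPM in healthy samples and 13027 at day 7. The single markers moved in both directions. Of the 12, edgeR called 3 higher and 2 lower at day 1, 1 higher and 2 lower at day 3, and 0 at day 7. The shares of all tested genes called were 4.06%, 7.19% and 3.18%. The part of LSEC number in the fall of Ntf3 was not tested.

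Bdnf (ENSMUSG00000048482, chr2:109674700-109727007, plus strand) was called higher at day 3 and day 7. It was 0.0898, 0.435, 0.312 and 0.355 CPM in healthy LSECs and 0.203 and 0.363 CPM at day 1, so that these groups overlapped. At day 3 it was 2.71, 1.67, 1.71 and 0.456 CPM, and at day 7 it was 0.759, 4.96, 2.87 and 4.10 CPM. Every sample of day 3 and day 7 exceeded the highest healthy one, though day 3 replicate 4 did so by a small margin.

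The log2 fold change of Bdnf against healthy was 2.45 (SE 0.66, edgeR adjusted p = 0.0396) at day 3 and 3.41 (SE 0.69, adjusted p = 0.0195) at day 7, from a mean of 0.298 ± 0.148 CPM (SD, n = 4) to 1.64 ± 0.922 (n = 4) and 3.17 ± 1.83 (n = 4). At day 1 it was -0.07 (SE 0.79, adjusted p = 0.990). Neither the day 3 against day 1 difference (2.52, SE 0.88, adjusted p = 0.167) nor the day 7 against day 3 difference (0.95, SE 0.62, adjusted p = 0.438) passed the threshold in edgeR, while the former passed in DESeq2 (adjusted p = 0.0187) and limma-voom (0.0393). The day 3 call was lost in 14 of 22 alternative settings. Some of them were no filter on low counts (adjusted p = 0.0674), replicate number as a block (0.0663) and a fit of only the 2 groups (0.0781). The others left out healthy replicate 1, 2, 3 or 4 (0.1003, 0.0714, 0.0940 and 0.0842), day 1 replicate 1 or 2 (0.0666 and 0.0667), day 3 replicate 1, 2 or 3 (0.108, 0.0683 and 0.0769) or day 7 replicate 3 or 4 (0.0647 and 0.0655). The day 7 call was lost only without healthy replicate 1 (adjusted p = 0.0638), healthy replicate 2 (0.0515), healthy replicate 3 (0.0664) or day 7 replicate 2 (0.0652).

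Bdnf stayed a low-abundance transcript, with 9 to 37 counts per healthy sample and 73 to 361 at day 7. An antisense gene, Gm45346, shares 896 exon bases with Bdnf. The library kit does not mark strand, so that reads of the pair cannot be told apart, but Gm45346 itself was given only 0 to 6 counts per sample. Of the 7 RefSeq promoter windows of Bdnf, the one that held a TGACG core is printed, chr2:109692186-109692485 on the plus strand of GRCm38.p6, with the same motifs in capitals.
Bdnf start: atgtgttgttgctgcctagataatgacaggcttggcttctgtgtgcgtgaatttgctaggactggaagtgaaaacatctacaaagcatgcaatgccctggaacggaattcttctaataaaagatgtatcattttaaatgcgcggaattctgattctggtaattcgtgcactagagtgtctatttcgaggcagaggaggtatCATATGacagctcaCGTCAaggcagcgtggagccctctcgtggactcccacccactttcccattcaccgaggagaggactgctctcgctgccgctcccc
This window also held 1 E box and neither a GC box nor a TATA box. It was picked for its letters after all 7 had been read, and the gene counts do not say which start was used.

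**Figure D2:**
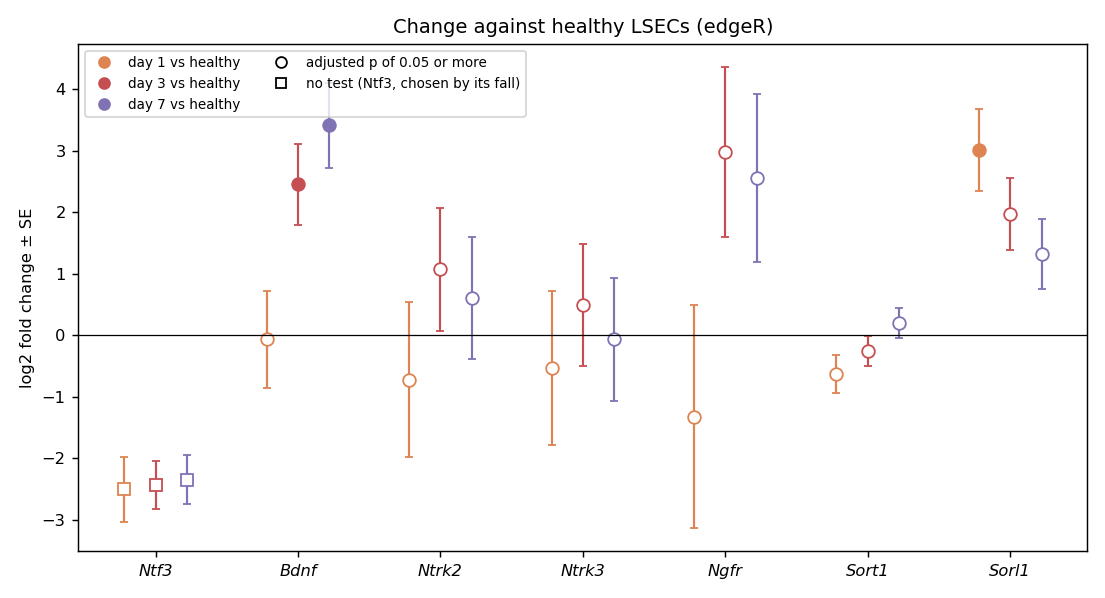
Log2 fold change against healthy LSECs with its SE for the 6 members and Sorl1, at day 1, day 3 and day 7. Filled circles passed an adjusted p of 0.05, open circles did not, and the squares of Ntf3, near -2.4 throughout, carry no test.

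Ntf5, the ligand that shares TrkB with Bdnf, was also rare. It reached at most 0.937 CPM in any sample and was not called in any comparison.

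Levels of different genes were compared per kb of exon. In healthy LSECs Ntf3 stood at 29.2 ± 5.30 CPM per kb (SD, n = 4), above 92.5% of tested genes. Sort1 followed at 3.99 ± 0.825 CPM per kb, a step larger than the SDs. Bdnf was at 0.0479 ± 0.0238, Ngfr at 0.0250 ± 0.0309, Ntrk2 at 0.0192 ± 0.00723 and Ntrk3 at 0.0192 ± 0.00648 CPM per kb, and these 4 neighbours were not separated beyond their spread. At day 7 the order began with Ntf3 at 5.72 ± 1.82 and Sort1 at 4.57 ± 0.811 CPM per kb, which were not separated beyond their spread, followed by Bdnf at 0.510 ± 0.294.

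Ntrk3 (ENSMUSG00000059146, chr7:78175959-78738012, minus strand), the preferred receptor of neurotrophin-3, was a rare transcript. It was 0.299, 0.752, 0.655 and 0.607 CPM in healthy LSECs, 0.478 and 0.319 CPM at day 1, 1.95, 1.11, 0.208 and 0 CPM at day 3, and 0.156, 0.825, 0.551 and 0.681 CPM at day 7. The day 3 samples spanned the whole range, from no count in replicate 4 to 161 counts in replicate 1. Its log2 differences from healthy were -0.53 (SE 1.25, edgeR adjusted p = 0.901), 0.49 (SE 1.00, adjusted p = 0.817) and -0.06 (SE 1.00, adjusted p = 0.984) at days 1, 3 and 7. With such errors a change of 2-fold in either direction could not be told from none.

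Ntrk2 (ENSMUSG00000055254, chr13:58806569-59133970, plus strand), the receptor of Bdnf, was as low. It was 0.569, 0.247, 0.312 and 0.355 CPM in healthy LSECs, 0.239 and 0.209 CPM at day 1, 1.26, 1.63, 0.240 and 0 CPM at day 3, and 0.177, 0.727, 0.375 and 0.977 CPM at day 7. As for Ntrk3, replicates 1 and 2 of day 3 were high and replicates 3 and 4 low. The log2 differences from healthy were -0.72 (SE 1.26, edgeR adjusted p = 0.856), 1.07 (SE 1.00, adjusted p = 0.586) and 0.60 (SE 1.00, adjusted p = 0.774). Both genes also give rise to receptor forms without a kinase, and the gene counts do not separate them from the full receptors.

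Ngfr (ENSMUSG00000000120, chr11:95568818-95587735, minus strand), the p75 receptor, was at or near 0 before and shortly after injury and was detected in all samples of day 3 and day 7. It had no count in 2 of 4 healthy samples and 0.218 and 0.126 CPM in replicates 3 and 4. At day 1 it was 0 and 0.0660 CPM. It then was 0.968, 1.58, 0.164 and 0.0637 CPM at day 3 and 0.0624, 0.406, 0.772 and 0.83 CPM at day 7. In both groups some samples lay well above the healthy ones and others within their range. The log2 fold changes of 2.98 (SE 1.38, edgeR adjusted p = 0.223) at day 3 and 2.56 (SE 1.36, adjusted p = 0.296) at day 7 did not pass the threshold. In limma-voom both passed it, with log2 5.23 (adjusted p = 0.0130) and 4.36 (adjusted p = 0.0290).

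Sort1 (ENSMUSG00000068747, chr3:108284082-108361511, plus strand), which encodes sortilin and also sorts other proteins to lysosomes, had the highest level among the receptor genes that are members of the set. It was 30.3, 32.2, 36.6 and 21.7 CPM in healthy LSECs, 19.0 and 19.9 CPM at day 1, 20.2, 18.7, 23.8 and 38.5 CPM at day 3, and 29.4, 38.1, 41.5 and 29.4 CPM at day 7. Both day 1 samples lay below the lowest healthy one, by a log2 difference of -0.63 (SE 0.31, edgeR adjusted p = 0.301). At day 3 and day 7 the samples overlapped the healthy ones, with log2 differences of -0.25 (SE 0.24, adjusted p = 0.593) and 0.20 (SE 0.24, adjusted p = 0.690). An antisense gene, Gm12523, shares 338 exon bases with Sort1 and was given 0 to 8 counts per sample. In limma-voom Sort1 passed the threshold at day 1 (adjusted p = 0.0209), at day 3 (log2 -0.65, adjusted p = 0.0261) and in day 7 against day 3 (adjusted p = 0.0192). The last difference was 0.45 (SE 0.24, adjusted p = 0.342) in edgeR and was called there without day 3 replicate 4 (adjusted p = 0.0392).

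Across these comparisons, 0 of the 5 tested members were called by edgeR at day 1 against healthy, where 4.06% of all genes were called, 1 of 5 (Bdnf) at day 3 with a background of 7.19%, and 1 of 5 (Bdnf) at day 7 with a background of 3.18%. From day 1 to day 3, 0 of 6 members were called beside 2.54% of all genes, and from day 3 to day 7, 0 of 5 beside 1.77%. At an unadjusted edgeR p under 0.05 the members numbered 0, 2, 1, 1 and 0 in these 5 comparisons. All tested genes at that cutoff numbered 4759, 5906, 5609, 4198 and 5017 of 26626. DESeq2 called 0, 1, 1, 1 and 0 of the members, beside 2837, 3790, 2713, 2408 and 1783 of all genes. With limma-voom it was 1, 3, 2, 1 and 1, beside 4308, 7265, 7047, 3344 and 6002.

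Marker sums of some other cell types also differed between the groups. All 16 stellate cell and fibroblast markers were detected in each group, and their summed level was 301 to 481 CPM in healthy samples and 219 to 258 CPM after 1 day. After 3 days it was 985 to 2863 CPM and after 7 days 635 to 7894 CPM. Of the 16, 12 were called higher at day 3 and 12 at day 7, beside 7.19% and 3.18% of all tested genes called. The list includes Reln and Ecm1, which the study also counts among genes enriched in healthy human LSECs. The counts of these genes therefore need not come from stellate cells or fibroblasts. Day 7 replicate 1, with the lowest sum of its group, also had the lowest Bdnf and Ngfr of its group. Day 7 replicate 2, with the highest sum, had the highest Bdnf. Its Ngfr, at 0.406 CPM, lay below that of day 7 replicates 3 and 4, which had lower sums. Hepatocyte markers and biliary and mesothelial markers were also highest in day 7 replicate 2 within that group. The order did not hold for day 3 replicate 4 either, where the sum was 2863 CPM, Bdnf was 0.456 CPM and Ngfr 0.0637 CPM. The part of stellate cells, fibroblasts, hepatocytes or biliary and mesothelial cells in the rise of Bdnf was not tested.

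**Figure D3:**
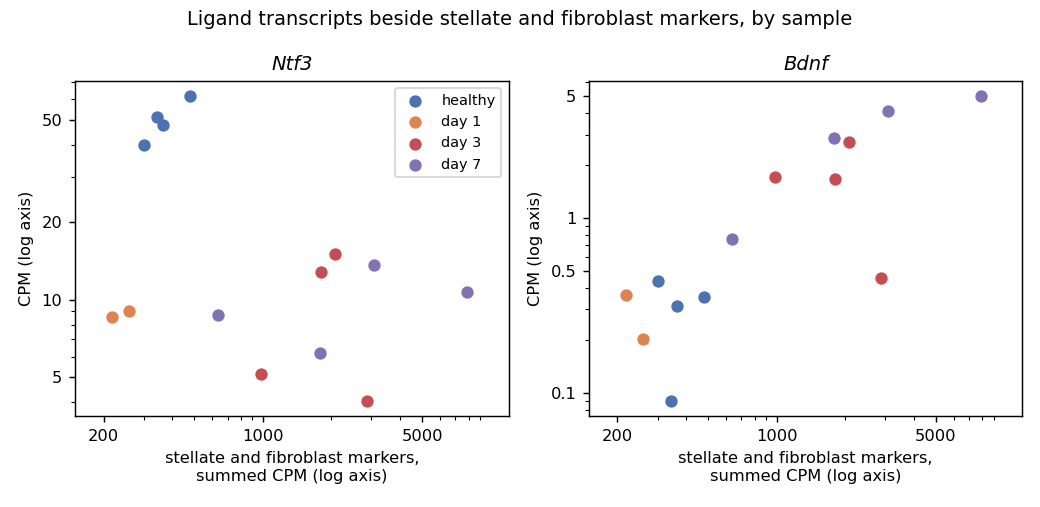
Ntf3 and Bdnf in CPM against the summed CPM of 16 stellate cell and fibroblast markers, with both axes logarithmic and 1 point per sample coloured by group. Of the 7 samples with sums of 985 CPM or more, 6 have Bdnf at 1.67 CPM or above, the exception being day 3 replicate 4. Ntf3 is at most 15.01 CPM in the injured samples. The part of these cells in either gene was not tested.

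Ntf3 was 9.01 and 8.57 CPM at day 1, when the same marker sum was 219 to 258 CPM, and 10.7 CPM in the day 7 sample with a sum of 7894 CPM. The part of these cells in the values of Ntf3 was not tested. Monocyte and neutrophil markers, 10 of 10 detected in each group, summed to 32.1 to 195 CPM in healthy samples and 2978 to 7202 CPM after 1 day. After 3 days they summed to 78.6 to 4160 CPM and after 7 days to 179 to 337 CPM. At day 3 they were 4160 and 2389 CPM in replicates 1 and 2 against 132 and 78.6 CPM in replicates 3 and 4, the same split of samples as seen for Ntf3, Ntrk2, Ntrk3 and Ngfr. Schwann cell and neuron markers were also higher in these replicates, with 47.6 and 52.9 CPM against 13.3 and 13.5 CPM. In healthy samples that list of 11 summed to 6.90 to 12.4 CPM, and the Schwann cell gene Sox10 was below 3 counts in every healthy sample. Hepatocyte markers, 10 of 10 detected, ranged from 234 to 10297 CPM in healthy samples, the highest in replicate 4, and from 928 to 7233 CPM at day 7. The study's methods add a CD45- gate to the sort, with CD45 as a marker of immune cells. The part of monocytes, neutrophils, Schwann cells, neurons or hepatocytes in the values of Ntf3 and the receptors was not tested.

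Other receptors of the pathway were mostly rare. Sorl1, which encodes a sorting receptor related to sortilin, was the exception, and it was 6.39, 11.4, 11.2 and 2.42 CPM in healthy LSECs against 82.3 and 44.5 CPM at day 1. It was called higher at day 1 (log2 3.01, SE 0.66, edgeR adjusted p = 0.0208), a call lost without day 1 replicate 1 (adjusted p = 0.275) or healthy replicate 1 (0.0625) and with replicate number as a block (0.106). Sorl1 then was 57.1, 44.0, 11.8 and 10.0 CPM at day 3, high in the replicates with many monocyte and neutrophil transcripts, and 13.8, 20.8, 18.5 and 25.3 CPM at day 7. At these times it did not pass the threshold in edgeR (adjusted p = 0.0583 and 0.206). The part of monocytes and neutrophils in the values of Sorl1 was not tested.

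Nradd, a death domain protein related to p75, had means of 1.40 ± 0.253 CPM (SD, n = 4) in healthy LSECs and 3.43 ± 1.83 (n = 4) at day 3 (log2 1.29, SE 0.41, edgeR adjusted p = 0.0750). Lingo1, a coreceptor of p75, reached 2.00 CPM in the highest sample of day 7, with a group median of 0.265 CPM. Sorcs1, Sorcs2, Sorcs3 and Rtn4r, the last encoding the Nogo receptor, were below 0.5 CPM throughout, and Sorcs1 and Rtn4r failed the filter on low counts. Of the 8 tested genes in this list of 10, edgeR called 1 at day 1 and 0 at day 3 and day 7. The shares of all tested genes called were 4.06%, 7.19% and 3.18%. At day 3 and day 7, 3 and 4 of the 8 had an unadjusted edgeR p under 0.05, beside 5906 and 5609 of all 26626 genes. DESeq2 called 3 and 1 of them at these times, beside 3790 and 2713 of all genes, and limma-voom 2 and 3, beside 7265 and 7047.

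Among the enzymes that cleave proneurotrophins or the plasminogen that does so, 10 of 12 were tested. Plau, the urokinase activator of plasminogen, rose at day 3 from 23.3 ± 7.07 to 75.1 ± 22.5 CPM (SD, n = 4 each, log2 1.69, SE 0.32, edgeR adjusted p = 0.00807). Its tissue-type counterpart Plat rose at day 7 from 3.05 ± 0.578 to 13.6 ± 9.23 CPM (log2 2.16, SE 0.46, adjusted p = 0.0253). Pcsk7, a proprotein convertase, fell at day 3 from 35.9 ± 3.93 to 18.1 ± 5.46 CPM (log2 -0.99, SE 0.26, adjusted p = 0.0364). The Plat call was lost without healthy replicate 1, 2 or 3 or day 7 replicate 2 or 4 (adjusted p from 0.0617 to 0.0897) and with the block (0.0531). The Pcsk7 call was lost without healthy replicate 1, 2, 3 or 4 or day 3 replicate 1, 2 or 3 (0.0592 to 0.0981), with library size only (0.0858) and with the block (0.0794). None of the 10 was called at day 1 by edgeR.

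Of 31 adaptors and kinases used by Trk receptors, 0 were called at day 1 or day 3 by edgeR, beside 4.06% and 7.19% of all tested genes. The median log2 difference of these 31 genes at day 7 was -0.09, and that of all tested genes was 0.02. Of 18 adaptors and effectors of p75, 1 was called higher at day 3 and at day 7, Ndn, which encodes necdin. Necdin RNA was 1.26 ± 0.377 CPM without injury, 7.60 ± 3.20 at day 3 (log2 2.60, SE 0.58, edgeR adjusted p = 0.0177) and 6.06 ± 4.87 at day 7 (log2 2.27, SE 0.57, adjusted p = 0.0491). At day 7 it too was lowest in replicate 1 (1.18 CPM) and highest in replicate 2 (12.6 CPM), as the stellate cell and fibroblast markers were. Hepatocyte markers and biliary and mesothelial markers also summed highest in replicate 2. The part of any of these cells in the values of Ndn was not tested. The day 3 call of Ndn was lost without healthy replicate 1, 2 or 3 (adjusted p from 0.0556 to 0.0602). Its day 7 call held only in 9 of 22 settings, and of the 14 omissions only those of healthy replicate 4, day 3 replicate 4 and day 7 replicate 1 kept it, with adjusted p = 0.173 without day 7 replicate 2.

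Of 18 genes known to be induced by neurotrophins, and by many other stimuli, 1 was called higher at day 1, 1 higher and 3 lower at day 3, and 2 lower at day 7. Fosl1, a partner of Jun, rose from 0.762 ± 0.147 to 43.2 ± 2.36 CPM at day 1 (log2 5.82, SE 0.53, edgeR adjusted p = 6.16e-05) and was 3.07 ± 2.16 CPM at day 3 (log2 2.01, SE 0.43, adjusted p = 0.0142). Its day 3 call was lost when only the 2 groups were fitted (adjusted p = 0.0582). Sgk1, a serum- and glucocorticoid-induced kinase, fell from 2527 ± 309 to 892 ± 227 CPM at day 3 (log2 -1.50, SE 0.22, adjusted p = 0.00271) and was 1096 ± 265 CPM at day 7 (log2 -1.20, SE 0.22, adjusted p = 0.0138), the latter call being lost without healthy replicate 1 or day 7 replicate 2, 3 or 4 (adjusted p from 0.0547 to 0.0688). Dusp6, a phosphatase that limits ERK, was 390 ± 61.8 CPM in healthy LSECs and 159 ± 36.5 at day 7 (log2 -1.29, SE 0.19, adjusted p = 0.00481). The medians of the list were -0.15, 0.01 and -0.32 at days 1, 3 and 7, beside -0.03, 0.18 and 0.02 for all tested genes. In all, 2 of the 85 tested genes of these 5 lists were called at day 1, 7 at day 3 and 5 at day 7, which is 2.35%, 8.24% and 5.88%, beside 4.06%, 7.19% and 3.18% of all tested genes.

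The genes whose pattern was most like that of Ntf3 were sought over the 14 samples among 15614 genes with a mean of at least 1 CPM, by Pearson correlation of log2 CPM. The 8 nearest were Rxrg (r = 0.955), Rcn3 (0.943), Slc7a7 (0.895), Zfp983 (0.887), Tceal1 (0.884), Nptn (0.880), Cyp2j9 (0.877) and Cdadc1 (0.877). Rxrg encodes a retinoid X receptor, Rcn3 a calcium-binding protein of the endoplasmic reticulum and Slc7a7 an amino acid transporter subunit. Rxrg was 2.63 ± 0.712 CPM (SD, n = 4) in healthy LSECs and 0.905 ± 0.0641 (n = 4) at day 7, and Rcn3 221 ± 19.8 and 143 ± 22.7 CPM. These correlations are a description, because the 14 samples fall into a healthy cluster and an injured one and share their libraries. On deviations from the group means, r was 0.894 for Rcn3 and 0.761 for Rxrg, and between 0.262 for Slc7a7 and 0.698 for Nptn for the others.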

How the data were processed

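Per the labels and the study's methods, RNA of sorted LSECs was made into libraries with the SMART-Seq v4 kit, which does not mark strand, and reads were mapped with STAR to GRCm38 and assigned to genes with StringTie. The counting options and annotation release are not given in the sources used here. The authors deposited 1 table of whole-number raw counts per Ensembl gene, 54524 genes by 14 samples, with no normalization. Of these identifiers 54495 were found in GENCODE vM21, and 9902 genes had no count. The labels do not say that replicates are separate mice, so p-values measure the spread between samples, which may be technical. Intervals, SEs and floors rest on reads without molecular identifiers.

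Counts were filtered with filterByExpr (minimum count 10, minimum total 15) to 26626 genes, scaled by TMM and fitted in edgeR 4.0.16 (R 4.3.3) with the quasi-likelihood test in 1 model of 4 group means over all 14 samples, two-sided, with Benjamini-Hochberg adjustment over all tested genes. CPM are counts per 1000000 of TMM-scaled library size, log2 CPM used a prior count of 2, and lengths are merged exons. The script was tested on simulated data. Alternatives were other size factors, DESeq2 1.42.0, limma-voom 3.58.1 with sample quality weights, other filters, only the 2 groups compared, replicate number as a block, and omission of each sample.

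Named genes were the 6 members, 10 other ligands and receptors, up to 3 called genes per further list and comparison with healthy, and the 8 genes most correlated with Ntf3. Some genes of these lists are not reported here. Members and lists were chosen with earlier results of these data known. Lists of pericentral, periportal, Kupffer cell, lymphocyte, and biliary and mesothelial markers were summed too. Their medians in healthy and day 7 samples were 601 and 352 CPM for pericentral, 1303 and 943 for periportal and large vessel, 1072 and 1142 for Kupffer cell and macrophage, 168 and 156 for lymphocyte, and 170 and 2109 for biliary and mesothelial markers. Promoter windows came from RefSeq (GRCm38.p6).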

Additional observations from a re-analysis of the deposited data

Results flagged for a closer look

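Of 41 sets of 4 samples examined, 1 held a sample far from the other 3. Nradd was 6.17 CPM in day 3 replicate 4, apart from the rest of its group by more than Dixon's 95% critical value for 4 samples allows. Chance alone gives about 1 in 20 such sets. The same sample had the fewest genes counted (22986).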

How the results depend on the processing

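The log2 fold changes of Ntf3 against healthy ranged from -2.75 to -2.39 at day 1, from -2.88 to -1.95 at day 3 and from -2.54 to -2.16 at day 7 over 22 alternatives each. Where a cause is not evident from fewer samples or genes, the cause was not tested. Day 1 has 2 samples, and without either the remaining one is assumed to vary like the other groups. With DESeq2, 2837, 3790, 2713, 2408 and 1783 genes were called at day 1, day 3 and day 7 against healthy, day 3 against day 1 and day 7 against day 3, of the other pathway genes 6, 17, 12, 9 and 5, and 1 member in day 3 against day 1. With limma-voom the genes were 4308, 7265, 7047, 3344 and 6002, the other pathway genes 8, 39, 29, 21 and 21, and the members 1, 3, 2, 1 and 1. Fitting only the 2 groups compared gave 2327, 1108, 3156, 189 and 1 genes, 10 and 15 other pathway genes at day 1 and day 7, 0 members at day 3 and 0 other pathway genes in day 7 against day 3. Scaling by library size only gave 287 genes and 1 pathway gene in day 7 against day 3, RLE size factors 1 pathway gene, and no filter 157 genes and 1 pathway gene there and 0 members at day 3. Library size only also moved the split of calls at day 7 from 582 higher and 264 lower to 619 and 94, and at day 3 from 1229 and 686 to 1207 and 401.

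The replicate numbers did not pair the samples, as the correlations of same-numbered deviations from the group means ran from -0.232 to 0.0962. With replicate number as a block, 594, 435, 311 and 244 genes were called at day 1 and day 7 against healthy, day 3 against day 1 and day 7 against day 3, with 1, 2 and 1 other pathway genes at day 1, day 7 and day 7 against day 3, and 0 members at day 3. Not every sample correlated best with its own number.

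Leaving out 1 sample, the genes called ranged from 164 (without day 1 replicate 1) to 1845 (without day 3 replicate 4) at day 1, 946 to 3314 at day 3, 193 to 2166 at day 7, 49 to 932 in day 3 against day 1 and 26 to 1652 in day 7 against day 3. The other pathway genes ranged over 1 to 4, 5 to 17, 1 to 9, 1 to 5 and 0 to 3, and the members called over 0 to 1 at day 3, at day 7 and in day 7 against day 3. Signs turned for uncalled values near 0. The log2 range was -0.58 to 0.24 for Bdnf at day 1, -0.56 to 0.78 for Ntrk3 at day 3, -0.32 to 0.24 for Ntrk3 at day 7, and -0.34 to 0.23 for Ntf3 in day 3 against day 1. In day 7 against day 3 it was -0.050 to 0.54 for Ntf3, -0.77 to 0.20 for Ntrk2, -0.86 to 0.50 for Ntrk3 and -0.71 to 0.39 for Ngfr. Ntf3 also turned to -0.061 in day 3 against day 1 with no filter and to -0.24 in day 7 against day 3 with limma-voom. Per kb of the longest transcript instead of all exons, Ntrk2 was 0.0424 and 0.0645 and Ntrk3 0.0294 and 0.0281 CPM per kb in healthy and day 7 samples. On deviations from the group means, r with Ntf3 was 0.761 for Rxrg, 0.262 for Slc7a7, 0.577 for Zfp983, 0.679 for Tceal1, 0.698 for Nptn, 0.529 for Cyp2j9 and 0.463 for Cdadc1. Low counts limit the values of Ntrk2, Ntrk3 and Ngfr, which had 0 to 161 counts per sample.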
